A study of Mus musculus with 7 samples.

Results

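Chemokines are small secreted or membrane-bound proteins that guide leukocytes, and 32 genes of chemokine ligands and receptors were followed here in mouse brain after ischemic stroke. They were taken by name, as the probes that carry 1 of 32 listed gene names in the scanner files, from 31114 named genes on the array. The list was chosen with earlier results of these data known. The set holds 14 CC ligands, 9 CXC ligands, the only CX3C ligand and 8 receptors. A total of 29 of the 32 had a probe well above background on 3 or more of the 7 arrays and entered the tests, which ran over 23311 genes, and 24 were well above background on every array. Ccl22 was not well above background on any array. Cxcl9 was so only on the array labelled sham, and Cxcl13 only on the array labelled knockout replicate 3.

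The study set Pla2g2e-deficient male mice against wild type male mice, all of the C57BL/6N background. Pla2g2e encodes a secreted phospholipase A2, and the labels do not say which exons the knockout lacks. There were 3 arrays of brain labelled knockout (KO) day 3 and 3 labelled wild type (WT) day 3, in both cases after a 60 min occlusion of the middle cerebral artery, and 1 array labelled WT sham, from an operated brain. The treatment text of every sample names the occlusion, the sham sample included, and the age of the mice and the brain region are not given in the sources used here. Whether each replicate is its own animal is not stated in the labels, so the p-values speak only of the spread among these samples, and that spread may be technical. Each array was hybridised in 1 colour, and levels are log2 of the processed signal minus the 75th percentile of the same array. A level of 0 is that percentile. Levels of different genes come from different probes and are not set against each other. Summed levels of marker lists lean on their brightest probes.

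Chemokine ligands fall into families by the spacing of their first cysteines, and their receptors are coupled to inhibitory G proteins. Ligands of Ccr2 draw monocytes out of bone marrow and into tissue, ligands of Cxcr2 draw neutrophils, and ligands of Cxcr3 draw activated T cells. In brain, neurons carry the membrane-bound chemokine Cx3cl1, whose receptor Cx3cr1 marks microglia.

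The array labelled WT day 3 replicate 1 stood apart from the 6 others. Its correlations with them over all genes were 0.857 to 0.916, against 0.968 to 0.991 for the 15 other pairs. The array labelled sham did not stand apart in this way. For 19 of the 29 measured chemokine and receptor genes it lay within the range of the 5 remaining day 3 arrays. It lay above that range for 3 genes (21.8% of all genes) and below it for 7 (24.9% of all genes). The brighter of the 2 Pla2g2e probes did not separate the arrays by genotype, reading -4.44, -5.83 and -4.97 on KO replicates 1, 2 and 3, against -6.89, -3.68 and -3.36 on WT replicates 1, 2 and 3, and -4.69 on sham. The dimmer probe was not well above background on any KO array or on WT replicate 1, and read -6.72 and -6.50 on WT replicates 2 and 3 and -6.83 on sham. Whether the labels of WT replicate 1 and sham were exchanged was not tested, and an exchange would change what every WT day 3 and sham value means. Arrays are therefore called by their labels, and each comparison is given with and without WT replicate 1. All WT arrays, sham included, lay on 1 slide and all KO arrays on the other, and the genotype therefore cannot be told apart from the slide.

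**Figure D1:**
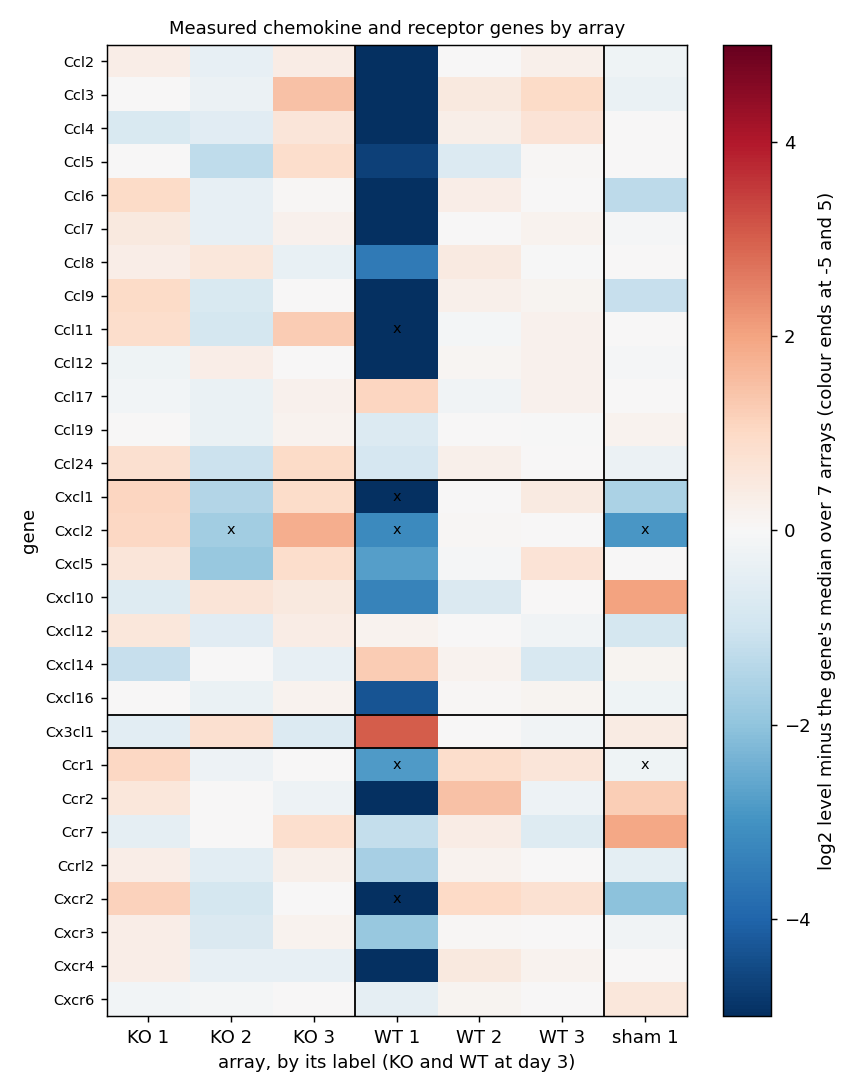
Heat map of the 29 measured genes (rows, by CC, CXC and CX3C ligands and receptors) on the 7 arrays (columns). Colour is the log2 level minus the gene's median over the arrays and a cross marks a level that was not well above background; the column of WT replicate 1 is the lowest of 7 for 24 genes and the highest for Ccl17, Cxcl14 and Cx3cl1.

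At day 3 none of the 29 genes differed between KO and WT brains past an adjusted p of 0.05 (limma, Benjamini-Hochberg over 23311 genes), and the genes called made up 0% of all genes tested. None of the 29 had an unadjusted p under 0.05, against 0.845% of all genes. The adjusted p of the 29 genes ran from 0.862 to 0.947. On average KO read higher than WT for 26 of 29 (46.9% of all genes did), and for 17 of 29 by at least 2-fold (4.64% of all genes), while 1, Cx3cl1, was lower by that much (4.74%). The 29 genes had a median log2 difference of 1.41 against -0.03 over all genes. That lean came with 1 array. Without WT replicate 1, KO read higher for 8 of 29 (50.4% of all genes), none differed by 2-fold in either direction (0.502% of all genes were that much higher and 0.862% that much lower), and the median was -0.07 against 0.001. The sign turned for 18 of the 29 genes. KO and WT arrays did not separate completely for any of the 29, with WT replicate 1 (4.53% of all genes) or without it (11.7%).

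The position of WT replicate 1 within the set was uneven. It read below each of the 6 other arrays for 24 of 29 genes, against 34.3% of all genes, and at least 2-fold below for 19, against 13.1% of all genes. It read above them for 3 genes, against 43.9% of all genes. Its median distance from the middle of the 6 others was -3.70 for the 29 genes and 0.15 for all genes. Marker genes of several cell types moved with it. All 7 measured genes of an 8-gene list for monocytes and macrophages were lowest on it, although well above background there. Their summed level, as a multiple of the 75th percentile, was 51.7 to 119 on KO arrays, 1.12 to 101 on WT day 3 arrays and 46.5 on sham. This sum leans on Chil3, the brightest of the 7 on every array other than WT replicate 1. All 5 neuron markers were highest on WT replicate 1, with summed levels of 11.52 to 36.3 on KO arrays, 25.5 to 133 on WT day 3 arrays and 37.1 on sham. Microglia markers were split on it, with 5 of 7 lowest and P2ry12 and Siglech highest, and summed to 52.6 to 60.9 on KO arrays, 33.5 to 57.8 on WT day 3 arrays and 53.8 on sham. The part of these cell types in the chemokine levels was not tested. In bulk tissue, fewer cells of a type and less RNA per cell cannot be told apart.

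**Figure D2:**
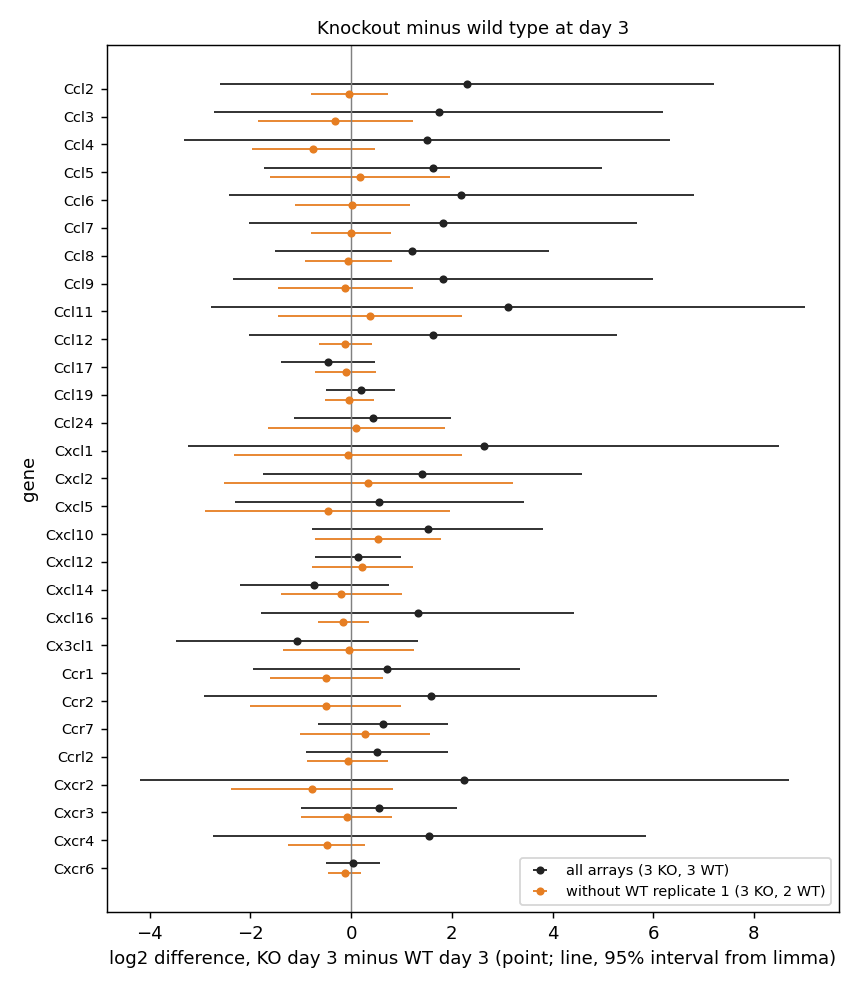
Log2 difference, KO day 3 minus WT day 3, for each of the 29 measured genes, with 95% intervals from limma; black, 3 KO and 3 WT arrays; orange, without WT replicate 1. Every interval includes 0 in both fits, and the orange points lie between -0.78 (Cxcr2) and 0.53 (Cxcl10).

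The monocyte chemokines came first among the CC ligands. Ccl2, the main ligand of Ccr2, read 3.72, 2.97 and 3.74 on KO replicates 1, 2 and 3, against -3.49, 3.38 and 3.65 on WT replicates 1, 2 and 3, and 3.16 on sham. The KO and WT values overlapped, sham lay among them, and WT replicate 1 was 88.0-fold below the lowest other array. KO minus WT was 2.30 ± 1.98 (SE; limma, adjusted p = 0.862), and -0.04 ± 0.29 without WT replicate 1, with a 95% interval of -0.80 to 0.73. Ccl12, a further Ccr2 ligand found in mice, varied little outside WT replicate 1. It read 1.58, 2.11 and 1.79 on KO arrays, against -3.27, 1.89 and 1.99 on WT day 3 arrays, and 1.72 on sham. Its levels on the 6 other arrays spanned 1.45-fold. Ccl7, which also binds Ccr2, read 0.77 to 1.68 on KO arrays, against -4.19, 1.18 and 1.38 on WT day 3 arrays, and 1.12 on sham.

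Ccr2 itself, the receptor of inflammatory monocytes, read -0.71, -1.27 and -1.54 on KO replicates 1, 2 and 3, against -6.92, 0.18 and -1.52 on WT replicates 1, 2 and 3, and -0.06 on sham. WT replicate 1 lay 41.6-fold below the next array, sham and WT replicate 2 were the highest, and the genotypes overlapped. The KO minus WT difference was 1.58 ± 1.82 (SE; limma, adjusted p = 0.862), and -0.51 ± 0.57 without WT replicate 1. Thus the ligands and the receptor of this pair were both lowest on the same array, and neither separated the genotypes.

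**Figure D3:**
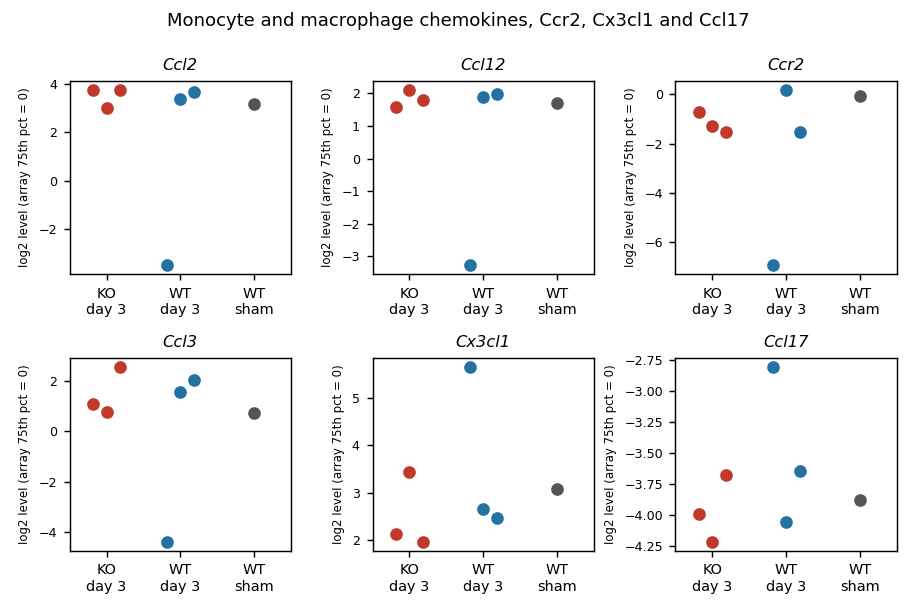
Levels of 6 genes on each array by labelled group (log2, array 75th percentile at 0; replicates 1 to 3 from left to right). WT replicate 1 is the lowest array for Ccl2, Ccl12, Ccr2 and Ccl3 and the highest for Cx3cl1 and Ccl17, while sham lies among the other arrays or, for Ccl3, just below them.

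Ccl3 and Ccl4, macrophage inflammatory proteins that draw monocytes and T cells, followed a similar pattern. Ccl3 read 1.07, 0.77 and 2.55 on KO replicates 1, 2 and 3, against -4.40, 1.55 and 2.02 on WT replicates 1, 2 and 3, and 0.72 on sham. KO replicate 3 was the highest array and sham lay just under KO replicate 2. Ccl4 read 0.98, 1.18 and 2.36 on KO arrays, against -4.55, 2.06 and 2.45 on WT day 3 arrays, and 1.75 on sham. For Ccl4 the difference without WT replicate 1 was -0.75 ± 0.47 (SE; limma, adjusted p = 1.0), with both remaining WT arrays above 2 of the 3 KO arrays. Ccl5, a chemokine made by T cells and macrophages, read 0.04, -1.23 and 0.91 on KO arrays, against -4.63, -0.63 and 0.11 on WT day 3 arrays, and 0.03 on sham. Its lowest array after WT replicate 1 was KO replicate 2.

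Ccl6 and Ccl9 are rodent chemokines that act on Ccr1. Ccl6 read 4.32, 2.96 and 3.42 on KO replicates 1, 2 and 3, against -2.97, 3.71 and 3.38 on WT replicates 1, 2 and 3, and 2.08 on sham. Ccl9 read 3.28, 1.59 and 2.34 on KO arrays, against -3.29, 2.58 and 2.46 on WT day 3 arrays, and 1.19 on sham. For both genes KO replicate 1 was the highest array and sham lay below all day 3 arrays other than WT replicate 1, by 1.84-fold for Ccl6 and 1.31-fold for Ccl9. Ccr1, their receptor, was dim: it read -5.84, -7.14 and -6.88 on KO arrays, against -5.98 and -6.27 on WT replicates 2 and 3, and was not well above background on WT replicate 1 or on sham.

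Most of these ligands lie in 2 groups on chromosome 11 (probe positions on mm9). Ccl2, Ccl7, Ccl11, Ccl12 and Ccl8 lie between 81850650 and 81930167, and Ccl5, Ccl9, Ccl6, Ccl3 and Ccl4 between 83339296 and 83478111. All 10 were lowest on WT replicate 1, from 9.08-fold (Ccl8) to 88.0-fold (Ccl2) below the next array among those it read above background. On chromosome 8, Cx3cl1 and Ccl17 lie within 97274709 to 97335829 with Ccl22, and the 2 measured genes of this group were both highest on WT replicate 1. They lay above the next array by 4.64-fold for Cx3cl1 and 1.80-fold for Ccl17. Over all genes this array was the lowest for 34.3% and the highest for 43.9%, so the 2 genes on chromosome 8 are too few for a contrast. Whether chromosomal position plays a part was not tested.

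The remaining CC ligands were few. Ccl11 and Ccl24 are eotaxins, which draw eosinophils through Ccr3. Ccl11 read 1.19, -0.59 and 1.57 on KO replicates 1, 2 and 3, against 0.19 and 0.52 on WT replicates 2 and 3, and 0.30 on sham, and was not well above background on WT replicate 1. For KO minus WT this gave 3.12 ± 2.38 (SE; limma, adjusted p = 0.862), and 0.37 ± 0.70 without that array. Here, as for Cxcl1, Cxcl2, Ccr1 and Cxcr2, the first value takes in a signal of WT replicate 1 that was not well above background. Ccl24 read -3.13, -4.99 and -2.99 on KO arrays, against -4.78, -3.69 and -3.94 on WT day 3 arrays, and -4.24 on sham, so that here the lowest array was KO replicate 2. Ccl8, an agonist of Ccr8 in mice, read 0.34 to 1.26 on KO arrays, against -2.84, 1.16 and 0.71 on WT day 3 arrays, and 0.71 on sham.

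Ccl17, a ligand of the chemokine receptor Ccr4 of T cells, was the only CC ligand of the set that was highest on WT replicate 1, at -2.80. It read -4.00, -4.22 and -3.68 on KO replicates 1, 2 and 3, -4.06 and -3.65 on WT replicates 2 and 3, and -3.88 on sham. Outside the set, the CC ligands Ccl25, Ccl27a and Ccl28 were also highest on WT replicate 1. Ccl19, which guides dendritic cells and T cells through Ccr7, spanned only 1.41-fold over the 6 arrays other than WT replicate 1. Its probe read -2.70 to -2.21 on KO arrays, against -3.07 to -2.37 on WT day 3 arrays, and -2.21 on sham. A total of 3 probes carry the name Ccl19, at 3 places of chromosome 4, and the signal of near-identical copies there cannot be told apart. WT replicate 1 was the lowest array on the brightest of them and lay within the range of the 6 others, at -3.20, on the probe at 41740584 to 41740643.

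Cxcl1, Cxcl2 and Cxcl5 are neutrophil-attracting CXC ligands of Cxcr2, and their probes lie in 1 stretch of chromosome 5, between 91190490 and 91334593 of mm9. RefSeq promoter sequences (GRCm38.p6) were at hand for 23 of the 32 genes, and those of Cxcl1, Cxcl2 and Cxcl10 are shown because they hold more than 1 match to a motif bound by NF-kappaB, the transcription factor best known for switching on inflammatory genes. Each is the 250 bases before the start site, read 5′ to 3′ on the gene's strand, with motif matches in capitals. Cxcl1 is on the plus strand at chr5:90890995-90891244, Cxcl2 on the plus strand at chr5:90903649-90903898 and Cxcl10 on the minus strand at chr5:92348890-92349139.
Cxcl1: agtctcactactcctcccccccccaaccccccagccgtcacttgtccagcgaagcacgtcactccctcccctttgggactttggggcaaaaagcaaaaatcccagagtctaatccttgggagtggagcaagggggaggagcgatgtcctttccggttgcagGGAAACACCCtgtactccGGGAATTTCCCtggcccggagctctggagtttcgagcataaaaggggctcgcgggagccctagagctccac
Cxcl2: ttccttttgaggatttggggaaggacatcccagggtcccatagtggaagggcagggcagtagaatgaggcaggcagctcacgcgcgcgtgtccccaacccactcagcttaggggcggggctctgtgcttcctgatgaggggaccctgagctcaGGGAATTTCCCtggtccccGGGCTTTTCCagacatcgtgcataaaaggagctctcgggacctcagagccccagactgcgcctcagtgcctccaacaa
Cxcl10: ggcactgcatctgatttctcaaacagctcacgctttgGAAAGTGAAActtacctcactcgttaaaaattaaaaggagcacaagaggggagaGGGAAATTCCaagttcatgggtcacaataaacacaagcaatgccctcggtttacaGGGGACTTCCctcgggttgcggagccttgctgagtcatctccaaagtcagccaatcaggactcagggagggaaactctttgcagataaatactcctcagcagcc

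The capitals mark GGGNNNTTCC, the NF-kappaB motif as searched, on either strand, and GAAANNGAAA, the interferon-stimulated response element as searched, also on either strand. In Cxcl1 and in Cxcl2 the run GGGAATTTCCC holds 2 overlapping matches, 1 on each strand. It starts 71 bases before the start site of Cxcl1 and 97 bases before that of Cxcl2. The upstream stretch of Cxcl10 holds NF-kappaB matches that start 159 and 104 bases before the start site and an interferon element that starts 213 bases before it. A match to the first motif was present in 4 of 23 promoters of the set (Ccl9, Cxcl1, Cxcl2 and Cxcl10) and in 4.65% of 32851 mouse promoters, and a match to the second in 3 of 23 (Ccl19, Cxcl10 and Cxcl14) and in 2.98%. The spellings were chosen after several had been looked at, and a match is a description of letters only.

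On the arrays Cxcl1 read 0.31, -2.26 and 0.14 on KO replicates 1, 2 and 3, against -0.78 and -0.32 on WT replicates 2 and 3, and -2.36 on sham, and it was not well above background on WT replicate 1. KO replicate 2 and sham were thus low and alike, and the KO values lay on both sides of the WT values. Its KO minus WT difference was 2.63 ± 2.37 (SE; limma, adjusted p = 0.862), and -0.06 ± 0.87 without WT replicate 1. Cxcl2 was dimmer, at -5.45 and -4.68 on KO replicates 1 and 3, and at -6.43 and -6.48 on WT replicates 2 and 3. It was not well above background on KO replicate 2, WT replicate 1 or sham. Cxcl5 read -2.45, -4.95 and -2.18 on KO arrays, against -5.79, -3.09 and -2.37 on WT day 3 arrays, and -3.04 on sham. Sham was here among the day 3 arrays, unlike for Cxcl1.

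Cxcr2, which neutrophils carry and all these ligands bind, read -0.80, -2.83 and -1.96 on KO replicates 1, 2 and 3, against -0.96 and -1.21 on WT replicates 2 and 3, and -4.00 on sham. It was not well above background on WT replicate 1. Sham was the lowest of the 6 other arrays, 2.24-fold below KO replicate 2. KO minus WT was 2.25 ± 2.60 (SE; limma, adjusted p = 0.862), and turned to -0.78 ± 0.62 without WT replicate 1, the lowest value of the 29 in that fit, with a 95% interval of -2.39 to 0.83.

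KO replicate 2 was the low day 3 array of this group after WT replicate 1, a pattern chosen after the values were seen. It read below KO replicates 1 and 3 and WT replicates 2 and 3 for 19 of 29 genes, against 37.5% of all genes, and above them for 4, against 27.2%. It was at least 2-fold below all of them for 4, against 1.06% of all genes, namely Cxcl1 by 2.80-fold, Cxcl5 by 3.63-fold, Ccl24 by 2.08-fold and Cxcl2, which it did not read above background. Of 6 measured neutrophil genes 3 were also lowest of these 5 on KO replicate 2, S100a8 among them but not S100a9. S100a8, a calprotectin subunit abundant in neutrophils, read 3.41, 1.95 and 2.89 on KO replicates 1, 2 and 3, against -3.21, 3.19 and 2.97 on WT replicates 1, 2 and 3, and 0.43 on sham. S100a9, its partner, read 4.17, 3.19 and 3.13 on KO arrays, against -2.19, 4.40 and 3.80 on WT day 3 arrays, and 1.53 on sham. Of a 7-gene neutrophil list 6 genes were measured, Ly6g was not used here, and 4 of the 6 were lowest on WT replicate 1, Mmp8 among them, which was not well above background there. Csf3r went the other way and was highest on WT replicate 1, at 5.40, against 4.62 to 5.32 on the other arrays. Mpo lay within the range of the other arrays there. The summed level of the 6 genes, most of which came from Csf3r, was 43.8 to 69.9 on KO arrays, 42.7 to 65.9 on WT day 3 arrays and 29.2 on sham. The part of neutrophils in the levels of Cxcr2 and its ligands was not tested.

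**Figure D4:**
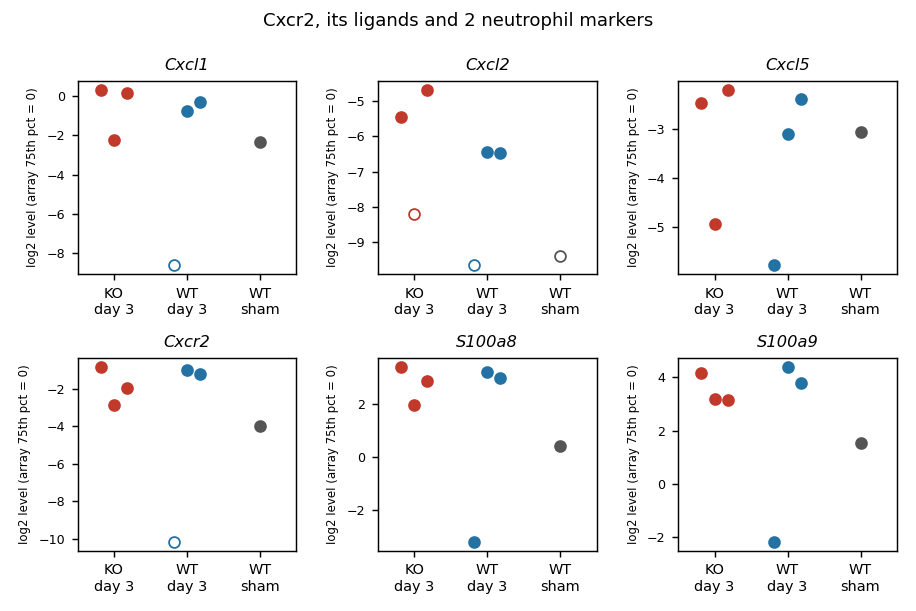
Levels of Cxcl1, Cxcl2, Cxcl5, Cxcr2 and the neutrophil genes S100a8 and S100a9 on each array by labelled group (log2, array 75th percentile at 0; replicates 1 to 3 from left to right; open symbols, not well above background). KO replicate 2 is the lowest KO array for the 3 ligands, Cxcr2 and S100a8, and sham is the lowest array after WT replicate 1 for Cxcl1, Cxcr2, S100a8 and S100a9.

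Cxcl10, an interferon-induced ligand of Cxcr3, read -1.93, -0.63 and -0.81 on KO replicates 1, 2 and 3, against -4.62, -2.02 and -1.29 on WT replicates 1, 2 and 3, and 0.74 on sham. KO replicates 2 and 3 were above all WT day 3 arrays, KO replicate 1 was not, and sham was the highest of all. KO minus WT was 1.52 ± 0.93 (SE; limma, adjusted p = 0.862), and 0.53 ± 0.48 without WT replicate 1, the highest value of the 29 in that fit. A second Cxcl10 probe was not well above background on any array. Cxcl9, the interferon-gamma-induced ligand of the same receptor, was read above background only on sham, at -6.92. Set against the lowest readable signal, Cxcl9 on the probe used was at least 1.38-fold lower in KO and at least 1.45-fold lower in WT day 3 brains than on sham. Its second probe was not well above background on any array. That probe read -9.09 on sham, against -8.57, -9.17 and -7.92 on KO arrays and -9.41, -8.77 and -8.87 on WT day 3 arrays. The fold therefore rests on 1 probe on the sham array. Cxcr3, which activated T cells carry, read -2.73, -3.77 and -2.89 on KO arrays, against -4.96, -3.02 and -3.06 on WT day 3 arrays, and -3.25 on sham. Unlike Cxcl10 and Cxcl9 on the probes used, Cxcr3 was not highest on sham. Of 6 T cell markers 3 were measured, with summed levels of 0.602 to 0.988 on KO arrays, 0.807 to 2.09 on WT day 3 arrays and 0.625 on sham. The highest sum was on WT replicate 1, where Cd4 read 0.89, against -1.63 to -1.04 on the other arrays. Cd3e and Cd2 lay there within the range of the other arrays.

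Cxcl12, which holds leukocytes and progenitors near vessels and stroma through Cxcr4, read 3.29, 2.15 and 3.09 on KO replicates 1, 2 and 3, against 2.88, 2.71 and 2.52 on WT replicates 1, 2 and 3, and 1.83 on sham. It was among the few genes for which WT replicate 1 lay within the range of the other arrays, and sham was the lowest, 1.25-fold below KO replicate 2. Its 2 probes disagreed about WT replicate 1. The probe shown lies at 117131227 to 117131286 of chromosome 6, and the dimmer one, at 117125026 to 117125085, read 0.24, -0.59 and 0.43 on KO arrays, against -1.67, -0.12 and 0.26 on WT day 3 arrays, and -0.65 on sham. Endothelial markers, all 5 lowest on WT replicate 1, summed to 35.6 to 68.4 on KO arrays, 11.96 to 57.6 on WT day 3 arrays and 29.0 on sham.

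Cxcr4 read -0.73, -1.46 and -1.47 on KO replicates 1, 2 and 3, against -6.86, -0.58 and -0.88 on WT replicates 1, 2 and 3, and -1.05 on sham. The receptor was thus 42.0-fold lower on WT replicate 1 than on the next array while the brighter probe of its ligand was not low there. KO minus WT was 1.56 ± 1.74 (SE; limma, adjusted p = 0.862), and -0.49 ± 0.29 without WT replicate 1. KO replicate 1 lay between WT replicates 2 and 3, and the other KO arrays below both.

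Cxcl16 is a transmembrane chemokine of macrophages and endothelium whose receptor Cxcr6 is carried by T cells and natural killer cells. Cxcl16 read 0.54, 0.22 and 0.73 on KO replicates 1, 2 and 3, against -3.77, 0.61 and 0.68 on WT replicates 1, 2 and 3, and 0.33 on sham, so that it spanned 1.42-fold outside WT replicate 1. Cxcr6 read -4.01, -3.98 and -3.89 on KO arrays, against -4.34, -3.77 and -3.89 on WT day 3 arrays, and -3.30 on sham. KO minus WT was 0.04 ± 0.22 for Cxcr6 (SE; limma, adjusted p = 0.947), with a 95% interval of -0.50 to 0.58, and -0.13 ± 0.13 without WT replicate 1. A second Cxcr6 probe, which overlaps the first, also read highest on sham, at -4.40, and lowest on WT replicate 1, at -5.33. Cxcl14, a chemokine made by epithelia and by some neurons, went the other way on WT replicate 1. It read 0.96, 2.09 and 1.67 on KO arrays, against 3.36, 2.26 and 1.28 on WT day 3 arrays, and 2.22 on sham.

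Cx3cl1, the neuronal chemokine, was, of the 3 genes of the set highest on WT replicate 1, the one that differed most. It read 2.12, 3.45 and 1.96 on KO replicates 1, 2 and 3, against 5.66, 2.65 and 2.47 on WT replicates 1, 2 and 3, and 3.07 on sham. WT replicate 1 was 4.64-fold above the next array, which was KO replicate 2, and these were also the 2 day 3 arrays with the highest summed neuron markers. On average KO minus WT was -1.08 ± 0.97 (SE; limma, adjusted p = 0.862), and -0.05 ± 0.50 without WT replicate 1. Its receptor Cx3cr1, which is outside the set, read 3.14, 4.33 and 3.33 on KO arrays, against 2.86, 3.58 and 3.21 on WT day 3 arrays, and 4.24 on sham. KO replicate 2 and sham were the highest arrays for Cx3cr1, and WT replicate 1 the lowest.

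Of the other receptors, Ccr7, which homes dendritic cells and T cells to lymph nodes, read -4.61, -4.18 and -3.35 on KO replicates 1, 2 and 3, against -5.38, -3.82 and -4.83 on WT replicates 1, 2 and 3, and -2.25 on sham. Sham was 2.14-fold above the next array. Ccrl2, an atypical receptor that binds the attractant chemerin without known signalling, read -3.51 to -2.65 on KO arrays, against -4.66 to -2.80 on WT day 3 arrays, and -3.48 on sham. Over the 8 receptors WT replicate 1 was the lowest array 8 times, against 11 of 13 CC and 5 of 7 CXC ligands measured. The median difference, KO minus WT, was 0.67 for receptors, 1.63 for CC ligands and 1.32 for CXC ligands with all arrays, and -0.31, -0.04 and -0.06 in that order without WT replicate 1.

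Both day 3 groups were also set against the single sham array, which they share and which has no spread of its own, so the spread of the day 3 arrays stood in for it. Every value of this kind rests on the labels of sham and of WT replicate 1, whose possible exchange was not tested. Of the 29 genes 0 passed an adjusted p of 0.05 against sham, in KO or in WT (0.0129% of all genes in each comparison, limma with Benjamini-Hochberg adjustment), and unadjusted p values under 0.05 numbered 0 for KO (1.3% of all genes) and 2 for WT (1.12%). KO minus sham had a median of 0.16, with 17 of 29 genes higher (50.4% of all genes), 6 of them by 2-fold or more (3.06%), and 3 lower by that much (6.23%). WT minus sham had a median of -0.71, with 6 of 29 higher (54.1%), 1 of them by 2-fold or more (1.82%), and 12 lower by that much (4.5%). Without WT replicate 1 the WT median was 0.31, with 21 of 29 higher (50.7%), 6 of them by 2-fold or more (4.1%), and 2 lower by that much (5.84%). None of the 29 then passed an adjusted p of 0.05 (0.0343% of all genes for KO and 0.0257% for WT, limma). Unadjusted p values under 0.05 numbered 5 for KO (4.91%) and 4 for WT (4.52%), and the adjusted p was at least 0.712 for KO and at least 0.769 for WT (limma).

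The genes with these unadjusted p values lay on both sides of sham. Cxcl10 differed from sham by a log2 value of -1.86 ± 0.61 in KO and -2.39 ± 0.65 in WT brains without WT replicate 1 (SE; limma, unadjusted p = 0.0303 and 0.0152), and by -1.86 ± 1.31 in KO and -3.38 ± 1.31 in WT brains with it. Ccr7 differed by -1.80 ± 0.63 in KO and -2.08 ± 0.67 in WT brains without it, and by -1.80 ± 0.73 and -2.43 ± 0.73 in the same order with it. Cxcr6 differed by -0.65 ± 0.16 in KO and -0.52 ± 0.17 in WT brains without it, and by -0.65 ± 0.31 and -0.69 ± 0.31 in the same order with it. Cxcr2 stood on the other side, higher than on sham by 2.13 ± 0.78 in KO and 2.91 ± 0.83 in WT brains without WT replicate 1, but with it the KO difference was 2.13 ± 3.67 and the WT difference -0.12 ± 3.67. Ccl6 was higher by 1.49 ± 0.55 in KO brains (limma, unadjusted p = 0.0458) and by 1.47 ± 0.59 in WT brains without WT replicate 1. With that array the Ccl6 differences were 1.49 ± 2.63 in KO brains (limma, unadjusted p = 0.594) and -0.71 ± 2.63 in WT brains. Cxcl2 was not well above background on sham, and was read above background on 2 of 3 arrays of each day 3 group. Its KO mean lay 2.78-fold above the lowest readable signal of sham. That mean takes in KO replicate 2, at -8.20, which was not well above background, so the fold is not a firm lower bound. WT replicate 1, at -9.65, lay below the sham signal of -9.40, so no least fold is given for Cxcl2 in WT. Ccr1, also not well above background on sham, differed from its sham signal by 0.47 ± 1.52 in KO brains (SE; limma), with all arrays. KO replicate 2, at -7.14, lay below the sham signal of -7.09, so no least fold is given for Ccr1.

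Compared array by array, sham lay above the 5 day 3 arrays other than WT replicate 1 for 3 of 29 genes (Cxcl10, Ccr7 and Cxcr6; 21.8% of all genes) and below them for 7 (Ccl3, Ccl6, Ccl9, Cxcl1, Cxcl2, Cxcl12 and Cxcr2; 24.9% of all genes). Neither count exceeded its share over all genes. For Ccl2 and Ccl12, in contrast, sham lay within the range of those 5 arrays.

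**Figure D5:**
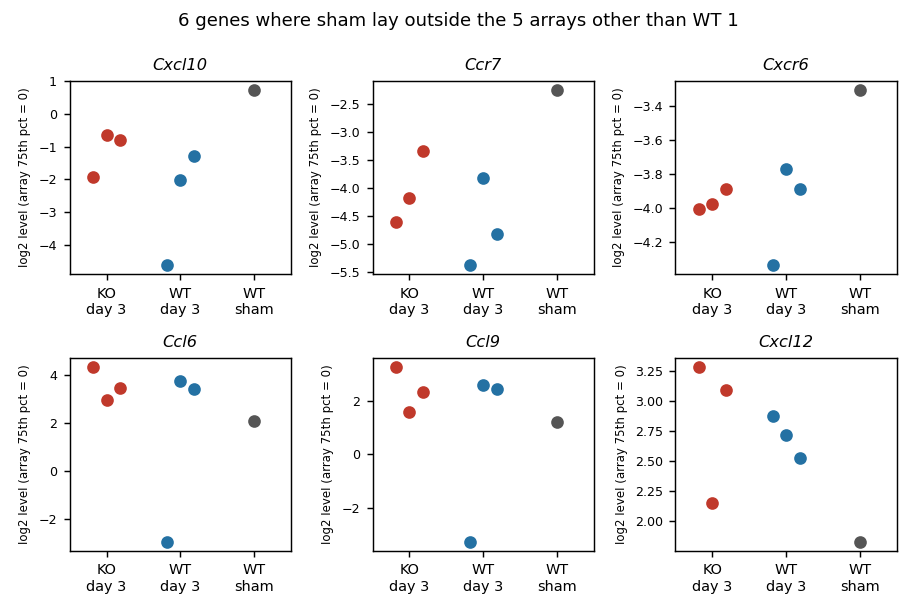
Levels of 6 of the 10 genes for which sham lay outside the 5 day 3 arrays other than WT replicate 1, by labelled group (log2, array 75th percentile at 0; replicates 1 to 3 from left to right). Sham is the highest array for Cxcl10, Ccr7 and Cxcr6, and lies below the KO arrays and WT replicates 2 and 3 for Ccl6, Ccl9 and Cxcl12.

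The rest of the chemokine system was read from lists chosen for their membership. Of 16 other ligands 8 were measured, 6 of them higher on average in KO than in WT (median 0.85), and of 15 other receptors 12 were measured, 8 of them higher (median 0.34). Of 15 genes that signal below the receptors all 15 were measured and 12 were higher (median 0.70). Of all genes 46.9% were higher in the same fit. None of them passed an adjusted p of 0.05 (limma) and none had an unadjusted p under 0.05. Without WT replicate 1 the medians were 0.13, -0.09 and -0.08 in that order, and Ccl28, a mucosal chemokine, had an unadjusted p under 0.05 (limma), as had 1.63% of all genes. The Ccl28 value takes in a signal of -7.60 on WT replicate 2 that was not well above background.

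WT replicate 1 was the lowest array for 4 of the 8 other ligands, 7 of the 12 other receptors and 12 of the 15 signalling genes. Of all genes 34.3% were lowest there. It was the highest array for 3, 2 and 3 genes in that order, against 43.9% of all genes. The genes named next are examples. Cxcl3, a further Cxcr2 ligand, read -4.19, -6.84 and -4.98 on KO replicates 1, 2 and 3, against -4.55 and -4.97 on WT replicates 2 and 3, with KO replicate 2 again the lowest of these 5, and was not well above background on WT replicate 1 or sham. Pf4, a platelet chemokine also made by macrophages, read 5.14, 3.47 and 4.02 on KO arrays, against -1.32, 4.40 and 4.06 on WT day 3 arrays, and 2.69 on sham. Of the signalling genes, Rac2, a leukocyte GTPase for directed movement, read -3.06 on WT replicate 1, against 1.28 to 1.36 on the 6 others. Dock2, which activates Rac in leukocytes, read -5.46 on WT replicate 1, against -1.48 to -1.23 on the 6 others. Ccl27a was highest on WT replicate 1, at 3.81, against 0.61 to 1.87 on the 6 others.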

How the data were processed

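RNA of 7 mouse brain samples was read in 1 colour (Cy3) on Agilent arrays. Per the file headers, the authors' deposited processed intensity comes from Feature Extraction 11.5.1.1 with background and trends removed within each array. The deposited value table is a linear ratio, each array's processed signal over its 75th percentile to within 0.0428%, and was an alternative only. Of 43020 spots other than controls, 31177 to 34029 were well above background, and 0 were saturated. Arrays give no molecule counts, so their number limits precision.

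Log2 processed signal minus the array's 75th percentile was averaged over the spots of a probe, leaving out flagged outliers. Accessions were named through RefSeq (28315 of 39401 probes matched, GRCm38.p6, names only), otherwise by the file. Probes were kept if well above background on 3 or more of 7 arrays, the brightest per gene (23311 genes). Probe positions are on mm9. limma 3.58.1 (R 4.3.3) fitted the 3 groups, two-sided, with 4 residual degrees of freedom, Benjamini-Hochberg adjustment and a threshold of 0.05, and was tested on simulated data. An exact permutation test of 3 against 3 cannot go below 0.10 and was not used. An "at least" fold sets the brighter group's mean against the higher of the dim probe's signal and the lowest signal well above background. Python 3.11.15 with matplotlib 3.10.9 made the figures.

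The genes and lists were chosen with earlier results of these data known. Genes were given array by array for the size of their difference, their spread or their role in a ligand and receptor pair, others by ranges. Alternatives were leaving out each replicate, normexp, quantile normalisation, the deposited table, 2 other filters, the mean of a gene's probes and the replicate number as a block. Deviations of same-numbered arrays from their group means had correlations of -0.38, -0.56 and 0.35. KO replicate 2 gave 0.61, -0.56 and -0.55 with WT replicates 1, 2 and 3. The outlying WT replicate 1 enters every WT deviation, so these correlations cannot decide whether the numbers pair the arrays. The numbers were not used to pair them in the main fit. Ccl21a, Ccl21b, Ccl21c, Ly6g and Ly6c2 were not used here. Values of 1 other gene of the lists are not reported here.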

Additional observations from a re-analysis of the deposited data

How the results depend on the processing

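None of the 618 values of the measured genes recomputed under other settings passed an adjusted p of 0.05 (limma). The array labelled WT replicate 1 decided most directions, and the cause was not tested. With each replicate left out in turn, the median KO minus WT difference ran from -0.071 to 2.07 and single genes as follows: Ccl2 -0.036 to 3.53, Ccl3 -0.32 to 2.89, Ccl4 -0.75 to 2.75, Ccl7 -0.00031 to 2.78, Ccl8 -0.055 to 1.94, Ccl9 -0.12 to 2.82, Ccl12 -0.11 to 2.52, Ccl19 -0.037 to 0.32, Cxcl1 -0.055 to 4.09, Cxcl5 -0.46 to 1.44, Cxcl12 -0.083 to 0.48, Cxcl16 -0.15 to 2.07, Ccr1 -0.49 to 1.37, Ccr2 -0.51 to 3.05, Ccrl2 -0.071 to 0.86, Cxcr2 -0.78 to 3.83, Cxcr3 -0.092 to 0.88, Cxcr4 -0.49 to 2.65 and Cxcr6 -0.13 to 0.15. Apart from Cxcl12, which turned without KO replicate 1, the lower ends are the values without WT replicate 1, and they and the median were identical with sham left out too.

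Against sham, the median ran from 0.050 to 0.44 for KO and from -1.77 to 0.31 for WT, and genes called over the whole array from 0 to 8 for KO and 0 to 6 for WT. For WT minus sham, Ccl6 ran from -1.88 to 1.47, Ccl9 from -1.61 to 1.33 and Cxcr2 from -1.70 to 2.91. Normexp gave a KO minus WT median of 0.80, turned Cxcr2 in WT minus sham to 1.12 and left 0 genes called against sham in either group, as did keeping only probes well above background on all 7 arrays, where the KO minus sham median was 0.011. Quantile normalisation turned the same Cxcr2 difference to 0.12 and left 1 gene called against sham in each group. With the replicate number as a block, KO minus WT had 0 genes called, a median of 1.41 and 1 of 29 genes at an unadjusted p under 0.05 (limma), against 149 of 23311 over all genes. The block changed no call. KO minus WT had 0 genes called over the whole array under each of these settings. Few arrays, a single sham and dim probes limit what can be seen.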
